A study of Mus musculus with 2 samples.

Results

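The genes described here are 10 transcriptional targets of the RAS-RAF-MEK-ERK cascade that act back on it or carry its output: the dual-specificity phosphatase genes Dusp4, Dusp5 and Dusp6, the Sprouty genes Spry1, Spry2 and Spry4, the Sprouty-related genes Spred1 and Spred2, and the ETS transcription factor genes Etv4 and Etv5. They were chosen by symbol, and all 10 are among the 27514 genes that both count tables share. They were measured by droplet-based 3′ single-cell RNA sequencing in organoids grown from intestinal adenomas of 17-week-old C57BL/6 mice of genotype ApcMin/+, which carry a truncating allele of the Wnt pathway tumour suppressor Apc. Organoids of the RSPO1-Fc group received R-spondin 1, which strengthens Wnt signalling, fused to an Fc domain, at 10 µg/ml per the treatment protocol, although another label of that sample gives the same number in mg/ml. Organoids of the control group were cultured without it. Each group held 1 library, and the number of mice or cultures behind a library is not given in the sources used here. With 1 library per group, a difference between them carries no replicate check and was not tested.

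Epithelial cells were taken as barcodes with at least 5960 unique molecular identifiers (UMIs) in the RSPO1-Fc library or at least 9810 in the control library, and at least 5 UMIs of Epcam, an epithelial adhesion gene. This gave 2751 of 2767 called cells in the RSPO1-Fc library and 1881 of 2269 in the control library. The other 388 control cells are called non-epithelial here. Of these, 300 had 0 Epcam UMIs. Levels are CPM (UMIs of a gene scaled to a common total over the shared genes), summed over the cells of a population, and all intervals are 95% intervals that cover counting error only, not variation between cells or cultures.

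ERK is the last kinase of a relay that starts at receptor tyrosine kinases, and among the genes it switches on are its own brakes. DUSP6 and DUSP5 remove the activating phosphates from ERK in the cytoplasm and the nucleus, and DUSP4 is a nuclear phosphatase with a wider choice of kinases. Sprouty proteins act between receptor and RAS, SPRED proteins bring the RAS-inactivating protein neurofibromin to the membrane, and ETV4 and ETV5 are transcription factors of the PEA3 group that are induced downstream of FGF and other receptors. The level of these genes is often read as a sign of how much ERK signal a cell has received, and each has further inputs of its own.

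Sequence upstream of the genes was used for 7 of the 10. None was available for Dusp4 and Etv4, and Spry4 was left out of the search. The windows of Dusp5, Dusp6 and Etv5 are shown because these genes differed most between the libraries among those that passed the minimum level. Each is the 300 bases from 250 before to 50 after the start of the gene in RefSeq on build GRCm38.p6, printed 5′ to 3′ along the gene's strand. Dusp5 lies on the plus strand (window at chr19:53528895-53529194), Dusp6 on the plus strand (chr10:99262981-99263280) and Etv5 on the minus strand (chr16:22439521-22439820, the upstream of its 2 windows). Capitals mark CArG boxes, the motif bound by serum response factor at many immediate early genes.
Dusp5: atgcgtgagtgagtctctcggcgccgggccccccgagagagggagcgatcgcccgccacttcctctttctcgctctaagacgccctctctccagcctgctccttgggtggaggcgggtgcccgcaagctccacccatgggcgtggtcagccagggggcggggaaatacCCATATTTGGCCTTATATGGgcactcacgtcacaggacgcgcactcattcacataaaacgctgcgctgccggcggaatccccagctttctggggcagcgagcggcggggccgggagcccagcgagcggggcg
Dusp6: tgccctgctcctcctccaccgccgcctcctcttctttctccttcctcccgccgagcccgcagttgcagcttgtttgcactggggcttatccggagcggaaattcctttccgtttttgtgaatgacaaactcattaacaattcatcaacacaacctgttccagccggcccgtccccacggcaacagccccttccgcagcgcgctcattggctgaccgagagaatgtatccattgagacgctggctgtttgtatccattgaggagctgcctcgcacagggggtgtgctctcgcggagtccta
Etv5: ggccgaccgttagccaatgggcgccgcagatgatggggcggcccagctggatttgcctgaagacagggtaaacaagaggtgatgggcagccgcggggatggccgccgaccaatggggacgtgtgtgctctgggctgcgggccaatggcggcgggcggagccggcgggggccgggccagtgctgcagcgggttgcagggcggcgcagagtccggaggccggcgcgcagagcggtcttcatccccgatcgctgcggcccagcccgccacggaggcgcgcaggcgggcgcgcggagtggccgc
The Dusp5 window held 2 adjacent CArG boxes, beginning 82 and 72 bases before the start. At least 1 CArG box was found in 1.63% of 32817 promoter windows of this length, and 2 or more in 6 of them. This motif was searched after the Dusp5 sequence had been read. Searches on both strands for the ETS motif CCGGAAG (8.86% of all windows), the TCF/LEF motif ATCAAAG (3.73%), the AP-1 motif TGACTCA (5.20%) and the CRE motif TGACGTCA (1.79%) gave no match in any window of the 7 genes. In the GENCODE M21 annotation no other gene overlaps any of the 10 on the same strand.

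The libraries were of like size, with 89437327 UMIs for RSPO1-Fc and 91675581 for the control, and medians of 23548 and 27736 UMIs per epithelial cell. Of called barcodes, 0 were shared, but the barcode lists of the libraries differ in length, as given below. The libraries also differ in features that the labels do not mention. Xist, transcribed from the inactive X chromosome of female cells, had 3 UMIs in RSPO1-Fc epithelial cells and 100820 in control epithelial cells, and the Y-linked Eif2s3y had 3980 and 0. Gata4, a proximal gut gene, had 3090 UMIs with RSPO1-Fc and 1 in the control, whereas Hoxb13, a hindgut gene, had 0 and 6997. The deposited tables list 27998 genes and 737280 barcodes for RSPO1-Fc, and 31053 genes and 6794880 barcodes for the control. In each comparison between the libraries, the RSPO1-Fc treatment and these differences cannot be told apart.

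The first comparison asked which of the 10 genes differ in epithelial cells with RSPO1-Fc. The transcription factor gene Etv5 and the ERK phosphatase gene Dusp6 were lower, with smaller differences in the same direction for Spred1 and Spred2, while the nuclear phosphatase gene Dusp5 was higher. Genes were compared where they reached 20 CPM in either library, which 7 of the 10 did, and were counted as different at a ratio of at least 2. By this rule 4 of 7 were lower (Dusp6, Spred1, Spred2 and Etv5), where 18.7% of 6911 genes were lower, and 1 of 7 was higher (Dusp5), where 7.23% of genes were higher. The remaining 3, Spry2, Spry4 and Etv4, were under the minimum in both libraries. The median log2 ratio, taken on log2(CPM + 1), was −0.99 over the 7 genes and −0.18 over all compared genes, and the last was 0.21 with edgeR's TMM scaling and 0.20 with median-of-ratios scaling. Under TMM, 11.2% of all genes were lower and 14.3% higher, and higher genes made up 56.3% of those counted, against 27.9% in CPM. The count of lower genes among the 10 was then 2, Dusp6 and Etv5, since Spred1 had a log2 ratio of −0.78 and Spred2 of −0.66.

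Among the phosphatase genes, Dusp4 was near equal, at 69.4 CPM (interval 67.5 to 71.4) with RSPO1-Fc and 66.4 CPM (64.5 to 68.4) in the control. Dusp5 was at 40.6 CPM (39.1 to 42.1) with RSPO1-Fc and 15.8 CPM (14.9 to 16.8) in the control, a 2.57-fold higher level (2.39 to 2.76). Dusp6 was at 15.2 CPM (14.3 to 16.2) with RSPO1-Fc and 45.6 CPM (44.0 to 47.3) in the control, 2.99-fold lower (2.79 to 3.21). Dusp5 and Dusp6, whose products share ERK as their main substrate, thus differed in opposite directions.

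Of the Sprouty genes, Spry1 was at 34.4 CPM with RSPO1-Fc and 28.2 CPM in the control, a ratio of 1.22 (1.15 to 1.30). Spry2 was at 10.4 CPM with RSPO1-Fc and 12.9 CPM in the control, 1.24-fold lower (1.12 to 1.37), and its log2 ratio lay between −0.35 and 0.03 over the alternatives tried, changing sign with TMM and median-of-ratios scaling. Spry4 was under the minimum level in both libraries, with 34 UMIs (0.48 CPM) in all RSPO1-Fc epithelial cells and 392 UMIs (5.86 CPM) in control epithelial cells, 12.1-fold lower (8.53 to 17.7). In barcodes of over 100 and up to 500 UMIs, taken as free RNA, Spry4 was at 0.61 CPM (7 UMIs) in the RSPO1-Fc library. In free RNA of the control it was at 7.84 CPM (56 UMIs). Both values lie above its level in the epithelial cells of the same library but rest on few UMIs. The part of free RNA in its epithelial values was not tested. Spred1 was at 18.4 CPM with RSPO1-Fc and 40.7 CPM in the control, 2.21-fold lower (2.07 to 2.36). Spred2, at 22.7 CPM with RSPO1-Fc and 46.2 CPM in the control, was 2.03-fold lower (1.91 to 2.16), and its interval reaches below 2-fold.

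The PEA3-group genes Etv4 and Etv5 parted most clearly. Etv5 had 556 UMIs with RSPO1-Fc (7.91 CPM, 7.27 to 8.59) and 7972 UMIs in the control (119 CPM, 117 to 122), 15.1-fold lower (13.8 to 16.5). Etv4, under the minimum level, was at 13.9 CPM (13.0 to 14.8) with RSPO1-Fc and 10.6 CPM (9.86 to 11.4) in the control, a ratio of 1.30 (1.18 to 1.44). After thinning each cell to 5000 UMIs, Etv5 had a UMI in 97 of 2751 RSPO1-Fc cells (3.53%) and 700 of 1881 control cells (37.2%). Over all control non-epithelial cells the share was 9.28%, and in their classes, described below, it ran from 1.32% in endothelial-like cells (median of 17148 UMIs) to 15.6% in macrophage-like cells (14474 UMIs). The RSPO1-Fc share lies within that range.

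**Figure D1:**
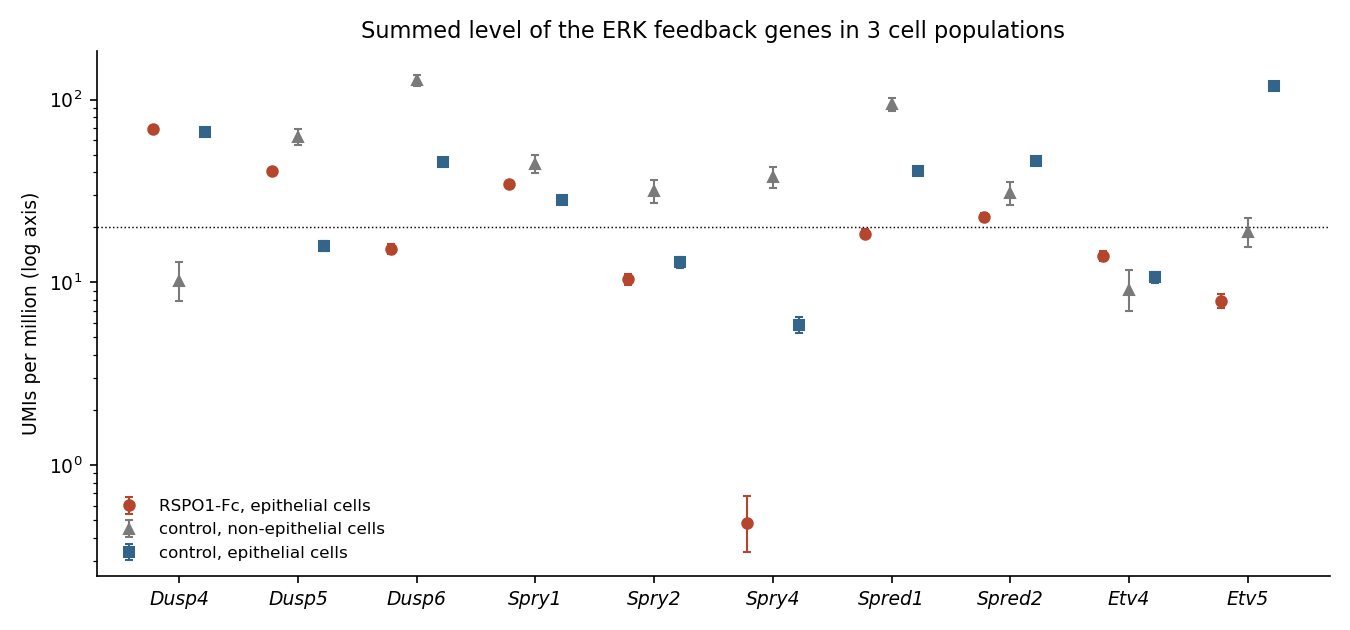
Summed level of each gene in CPM (vertical log axis) in RSPO1-Fc epithelial cells (circles), control non-epithelial cells (triangles) and control epithelial cells (squares), 1 library per group. Bars are 95% Poisson intervals and the dotted line is the minimum level of 20. Etv5 stands at 7.91 with RSPO1-Fc and 119 in control epithelial cells, and Spry4 at 0.48 and 5.86.

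Some control epithelial cells carried transcripts of other cell types. Summed over 10 macrophage markers, the level was 4.30 CPM in RSPO1-Fc epithelial cells, with Adgre1, C1qb, C1qc and Tyrobp at 0 UMIs, and 157 CPM in control epithelial cells, with none at 0. The sum of 10 endothelial markers was 38.0 CPM with RSPO1-Fc (Kdr at 0) and 89.2 CPM in the control. It includes Flt1, at 23.3 CPM in control epithelial cells and the first leading gene of control epithelial cluster 1. The sum of 10 fibroblast markers was 1.39 CPM with RSPO1-Fc (Col6a2 at 0) and 65.4 CPM in the control. Pericyte or smooth muscle markers, again 10, summed to 47.3 CPM with RSPO1-Fc (Cspg4 at 0) and 138 CPM in the control. Without control clusters 3 and 7, in which these markers stood out (described below), the log2 ratios were −3.76 for Etv5, −1.33 for Dusp6, −2.05 for Spry4 and 1.38 for Dusp5. When cells with 3 or more UMIs of these 4 marker lists were left out, which kept 1776 RSPO1-Fc and 552 control cells, they were −3.74, −1.63, −1.93 and 1.60 in the same order, and Spred2 was at −0.70.

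Other genes of the pathway were counted by the same rule. Of 18 measured cascade components, from adaptors to ERK and its RSK kinases, 4 were at least 2-fold lower with RSPO1-Fc (Sos2, Gab1, Braf and Rps6ka3) and 0 higher, where 18.7% of all genes were lower, with a median log2 ratio of −0.11. With TMM scaling 0 of 18 were counted in either direction. Of 13 other measured brakes of the pathway, 2 were lower, the neurofibromin gene Nf1 (16.9 CPM with RSPO1-Fc, 34.1 CPM in the control) and the ubiquitin ligase gene Cblb (7.54 and 20.4 CPM), and 1 was higher, the receptor inhibitor gene Lrig1 (23.1 and 11.3 CPM). With TMM scaling, of 12 then measured, Lrig1 was still counted and 0 were lower. Of 10 measured receptor tyrosine kinases, Epha2 was higher (72.6 CPM with RSPO1-Fc, 25.7 CPM in the control) and Flt1 lower (5.56 and 23.3 CPM), and with TMM scaling 3 were higher and 1 lower.

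Genes known to respond to ERK differed in both directions. Of 17 measured, 4 were higher with RSPO1-Fc, where 7.23% of all genes were, and 4 were lower, where 18.7% were. With TMM scaling 5 were higher, with Hbegf added, and 3 lower, without Fosb. The higher ones were Plaur, the urokinase receptor gene (134 CPM with RSPO1-Fc, 12.6 CPM in the control), the EGF receptor ligand gene Areg (174 and 34.4 CPM), Emp1 (92.1 and 19.9 CPM) and the AP-1 gene Fosl1 (33.5 and 14.0 CPM). The lower ones were the immediate early genes Fos (239 CPM with RSPO1-Fc, 766 CPM in the control), Egr1 (143 and 401 CPM) and Fosb (74.3 and 157 CPM), and Phlda1 (327 and 918 CPM). Of 12 Wnt target genes, most of them feedback regulators such as Axin2 and Nkd1, 11 of 11 measured were at least 2-fold lower with RSPO1-Fc, with a median log2 ratio of −2.50, and 10 of 11 were with TMM scaling.

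To see where in the epithelium the genes lie, the epithelial cells of each library were clustered without any ERK pathway gene among the clustering genes. Each library gave 7 clusters, which are called here by their leading genes and are not matched between libraries. In the RSPO1-Fc library Etv5 stood out in cluster 6, led by Npy and Ptn, at 59.5 CPM (51.5 to 68.3), against 2.21 to 25.2 CPM in the other 6 clusters. The same 194 cells held 201 of the 556 Etv5 UMIs. Their 12 Wnt feedback genes summed to 2439 CPM, against 180 to 554 CPM in clusters 1 to 5 and 2392 CPM in cluster 7, a cluster of 36 cells led by Defa21. Dusp6 was at 41.4 CPM in cluster 6 and 70.3 CPM in cluster 7, against 7.74 to 16.1 CPM in clusters 1 to 5. Spry4 was at 2.07 CPM (7 UMIs) in cluster 6 and at 0.63 CPM or less elsewhere.

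In the control library Etv5 was again highest in a cluster led by Npy, number 6, at 181 CPM (170 to 193), but other clusters were also high, at 99.9 to 147 CPM, and cluster 5 stood apart at 25.2 CPM (22.3 to 28.4). Cluster 5 was led by Spink4, Lypd8 and Tff3, genes of secretory and surface cells, and had the lowest sum of Wnt feedback genes, 1017 CPM against 2267 to 5387 CPM. Spry4 followed the same order at its ends, with 14.0 CPM in cluster 6 and 2.28 CPM in cluster 5. Etv4 did not: it was highest in the cycling cluster 4, at 20.5 CPM (18.0 to 23.3), and in cluster 5, at 15.5 CPM, and lowest in clusters 1 and 3, at 3.28 and 3.21 CPM.

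Clusters 3 and 7 of the control stood out for markers of other cell types. Cluster 3 (255 cells, led by Cxcl14, Sparc and Col3a1) had 9 of 10 endothelial, 9 of 10 fibroblast and 9 of 10 pericyte or smooth muscle markers at least 2-fold above the other epithelial cells, and cluster 7 (62 cells, led by Apoe and S100a9) had 10 of 10 macrophage markers. Dusp6 was highest in cluster 3, at 88.4 CPM, and Dusp5 in cluster 7, at 50.2 CPM, against 9.19 to 24.5 CPM in the other clusters. Of the non-epithelial classes described below, macrophage-like and endothelial-like cells held both genes at least 2-fold above epithelial cells. Fibroblast-like and pericyte or smooth muscle-like cells did not, and Dusp6 was lower in the last. The part of such transcripts in the cluster values was not tested. In the control the highest cluster was 2.08 times the lowest for Spry1, 1.94 times for Dusp4 and Spry2, 1.87 times for Spred2 and 1.47 times for Spred1. Spred1 varied least in both libraries, by 1.32 times with RSPO1-Fc and 1.47 times in the control.

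**Figure D2:**
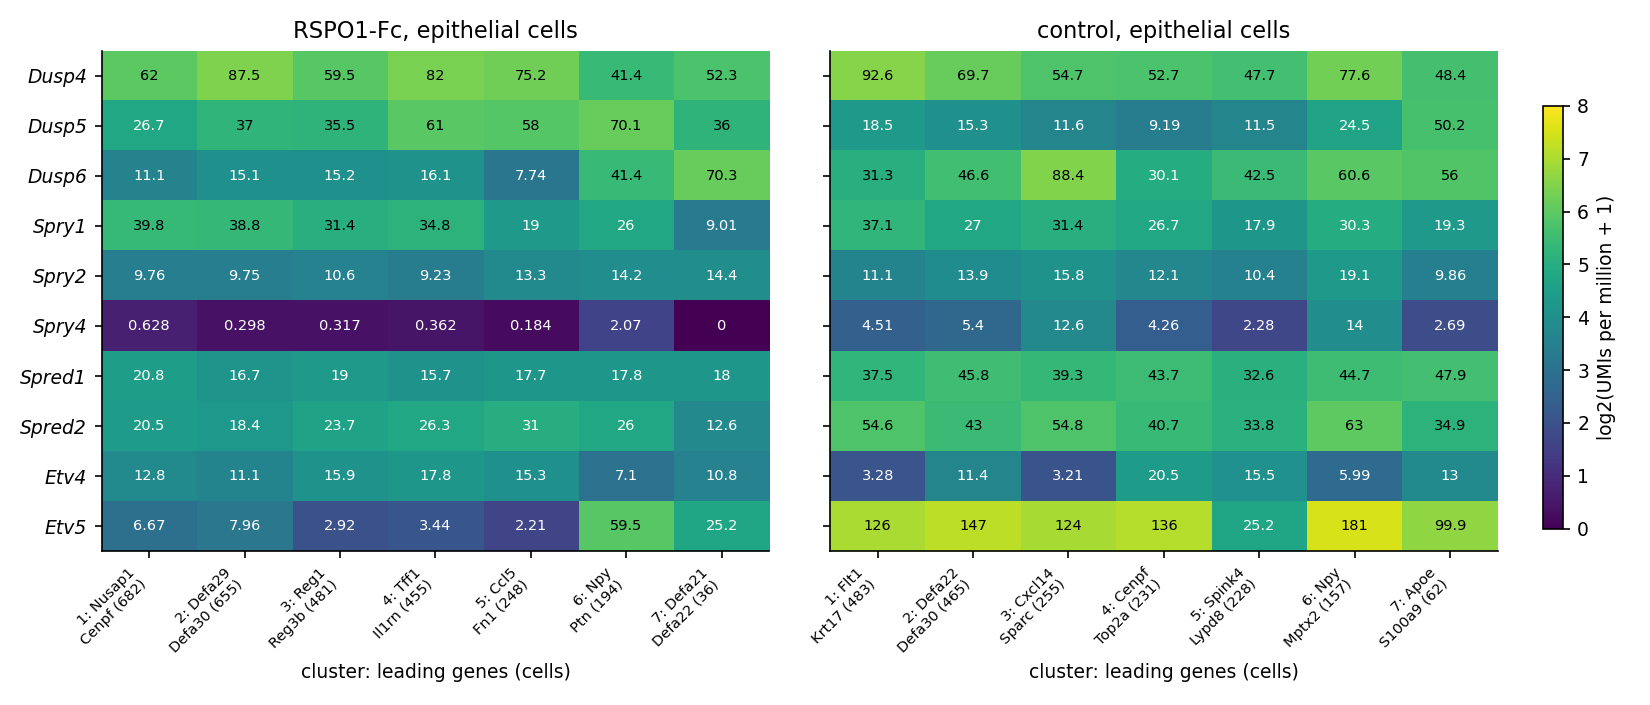
Level of each gene (rows) in each epithelial cluster (columns, with 2 leading genes and the number of cells), RSPO1-Fc library left and control library right. Numbers are CPM and colour is log2(CPM + 1). Etv5 reaches 59.5 in RSPO1-Fc cluster 6 and 181 in control cluster 6.

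The relation to Wnt output was then followed cell by cell. Each cell was thinned to 5000 UMIs, sorted by its summed UMIs of the 12 Wnt feedback genes into 5 bins (0 to 2, 3 to 5, 6 to 11, 12 to 23, and 24 or more), and the unthinned UMIs of the feedback genes were summed per bin. With RSPO1-Fc the bins held 1917, 532, 176, 104 and 22 cells, and in the control 95, 122, 303, 789 and 572. Most RSPO1-Fc cells therefore lay in the lowest bin and most control cells in the highest 2.

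Etv5 was higher in cells with more Wnt feedback UMIs in both libraries. From the lowest to the highest bin it was at 4.60, 6.26, 28.0, 69.6 and 63.2 CPM with RSPO1-Fc, and at 12.2, 37.4, 98.6, 140 and 150 CPM in the control. The highest bin was 13.8-fold (8.25 to 21.7) above the lowest with RSPO1-Fc and 12.3-fold (9.32 to 16.6) in the control. Within a bin the libraries still differed: Etv5 was 2.66-fold (1.92 to 3.61) lower with RSPO1-Fc in the lowest bin, 5.97-fold (4.61 to 7.79) in the next and 2.02-fold (1.68 to 2.43) in the bin of 12 to 23, compared with 15.1-fold over all epithelial cells. In free RNA, Etv5 was at 4.60 CPM in the RSPO1-Fc library and 87.0 CPM in the control, and its part in the low bins was not tested.

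Dusp6 followed the Wnt bins mainly with RSPO1-Fc, at 13.1, 13.3, 31.6, 43.9 and 107 CPM, where the last value rests on 34 UMIs from 22 cells. In the control it was at 49.8, 38.6, 34.3, 41.2 and 60.2 CPM, with no steady order. In cells matched for Wnt feedback UMIs the ratio changed along the bins: Dusp6 was 3.79-fold (3.23 to 4.44) lower with RSPO1-Fc in the lowest bin, but the ratio was 1.07 (0.83 to 1.34) in the bin of 12 to 23 and 1.79 (1.23 to 2.51) in the highest. Without control clusters 3 and 7 the control values were 47.6 CPM in the lowest bin, 37.2 CPM in the bin of 12 to 23 and 49.3 CPM in the highest.

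Spry4 was at 3.11 CPM in the lowest and 8.04 CPM in the highest control bin, 2.58-fold apart (1.46 to 4.97), and with RSPO1-Fc its 34 UMIs lay 25, 3, 0, 6 and 0 in the bins. In the control Etv4 ran opposite to Spry4, at 16.0, 18.2, 18.4, 9.21 and 4.51 CPM, so that the highest bin was 3.56-fold (2.54 to 4.97) below the lowest. Dusp4, Spred2 and Spry1 were higher in the highest control bin than in the lowest, by 2.08-fold (1.77 to 2.46), 2.02-fold (1.67 to 2.46) and 1.99-fold (1.54 to 2.62). With RSPO1-Fc Dusp4 was 2.73-fold (1.39 to 6.34) lower in the highest bin, which held 8 Dusp4 UMIs from 22 cells. The same ratio was 0.93 (0.37 to 1.93) for Spred2, on 7 UMIs, and 0.54 (0.20 to 1.18) for Spry1, on 6 UMIs. The share of all genes that differ 2-fold between these bins was not computed. Dusp5 was at 12.7 to 17.8 CPM over the control bins, with 16.3 CPM in the lowest and 16.8 CPM in the highest. Without control clusters 3 and 7 these were 10.2 CPM (7.23 to 14.0) and 18.0 CPM (15.9 to 20.4). Dusp5 was higher with RSPO1-Fc in every bin, by 2.19-fold to 4.33-fold.

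**Figure D3:**
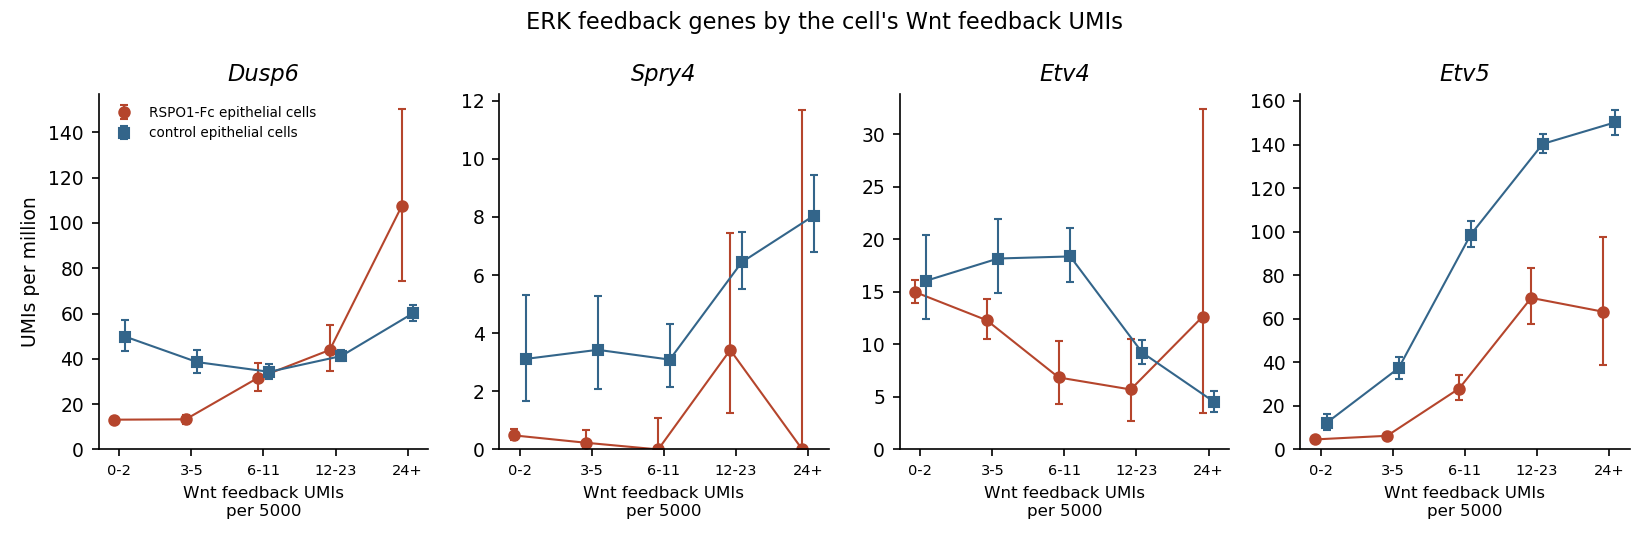
Level of Dusp6, Spry4, Etv4 and Etv5 in CPM (vertical axis) in epithelial cells binned by their Wnt feedback UMIs after thinning to 5000 UMIs (horizontal axis), RSPO1-Fc (circles) and control (squares). Bars are 95% Poisson intervals. Etv5 is higher in the highest bin than in the lowest in both libraries, and Etv4 is lowest in the highest control bin.

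A second axis was given by 6 immediate early genes (Fos, Fosb, Junb, Egr1, Ier2 and Atf3), a list added after values had been seen. Bins were made as above and held 333, 868, 1115, 384 and 51 RSPO1-Fc cells and 91, 97, 372, 779 and 542 control cells. Dusp5 was higher in cells with more immediate early UMIs, at 27.7, 31.9, 46.2, 52.6 and 107 CPM with RSPO1-Fc and at 1.60, 5.45, 9.65, 16.4 and 26.0 CPM in the control. The highest bin exceeded the lowest 3.84-fold (2.97 to 4.93) with RSPO1-Fc and 16.2-fold (7.40 to 44.5) in the control, where the lowest bin held 6 UMIs. Between the libraries the directions differed, since Fos, Fosb and Egr1 were lower with RSPO1-Fc and Dusp5 was higher. In cells matched for immediate early UMIs Dusp5 was 17.3-fold (7.84 to 47.6) higher with RSPO1-Fc in the lowest bin and 4.10-fold (3.21 to 5.18) in the highest, compared with 2.57-fold over all epithelial cells.

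Dusp4, Dusp6 and Spry1 were also higher in the highest immediate early bin of the control than in its lowest, Dusp4 by 1.99-fold (1.68 to 2.38), Dusp6 by 1.99-fold (1.63 to 2.47) and Spry1 by 3.71-fold (2.66 to 5.33). With RSPO1-Fc the same ratios were 1.58 (1.22 to 2.01) for Dusp4, 3.67 (2.43 to 5.42) for Dusp6 and 1.39 (0.92 to 2.02) for Spry1. Spry1, at a ratio of 1.22 between the libraries over all cells, was 2.81-fold (1.98 to 4.08) higher with RSPO1-Fc in the lowest bin, while in the highest its ratio was 1.05 with an interval that spans 1. With RSPO1-Fc, Etv5 was at 5.41 CPM in the lowest and 14.9 CPM (12 UMIs) in the highest immediate early bin, a ratio with an interval of 1.33 to 5.25, whereas in the control it was at 124 CPM in the lowest and 118 CPM in the highest bin. In the control, Spry2 was 1.93-fold (1.33 to 2.87) and Spred2 1.64-fold (1.35 to 2.00) higher in the highest bin, and Etv4 was 2.04-fold (1.46 to 2.81) lower.

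**Figure D4:**
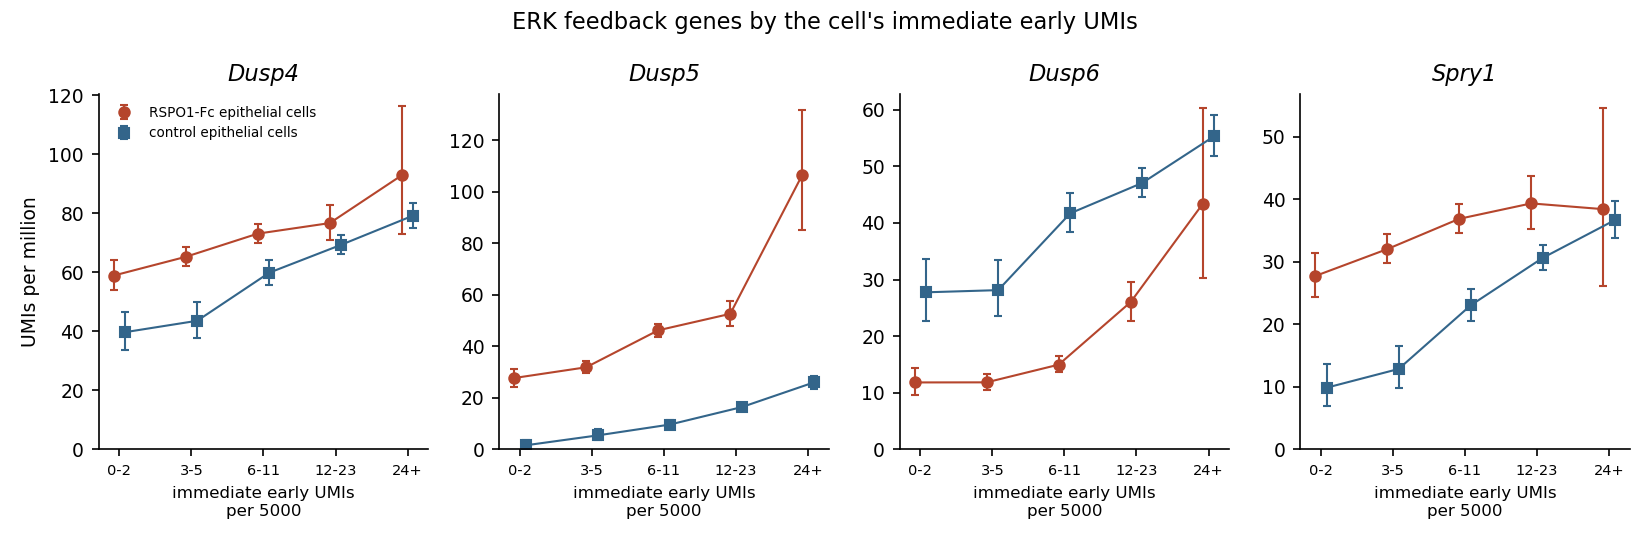
Level of Dusp4, Dusp5, Dusp6 and Spry1 in CPM (vertical axis) in epithelial cells binned by their immediate early UMIs after thinning to 5000 UMIs (horizontal axis), RSPO1-Fc (circles) and control (squares). Bars are 95% Poisson intervals. Dusp5 lies higher with RSPO1-Fc in all 5 bins and increases along the bins in both libraries.

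Cells were also binned by 16 cycling genes. Etv4 increased with them in the control, at 7.02 CPM in the 1470 cells of the lowest bin and 27.7 CPM in the 63 cells of the highest, 3.95-fold (3.05 to 5.06), whereas with RSPO1-Fc it was at 10.5 to 14.7 CPM in every bin. Dusp5 was lower in the highest cycling bin of the control, at 6.24 CPM against 18.0 CPM in the lowest. Etv5 was 9.69-fold to 17.0-fold lower with RSPO1-Fc in each cycling bin, and the count of lower genes without cycling cells was the same 4.

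Whether the 10 genes move together from cell to cell was described next. Pearson correlation of log2(UMIs + 1) was computed for all 45 pairs in each library at 5000 UMIs per cell, as a description across cells that share 1 library. No pair reached 0.1 in either library. Of pairs of genes seen in at least 10% of thinned cells, 0.471% did in RSPO1-Fc and 0.727% in control cells. Most of the 10 genes fall under that limit with RSPO1-Fc, where only Dusp4, Dusp5 and Spry1 were seen that often. In the control Dusp4, Dusp6, Spry1, Spred1, Spred2 and Etv5 were. The highest value was 0.064 over 2751 RSPO1-Fc cells and 0.083 over 1881 control cells, for Spry4 and Etv5 in both. The counts are sparse, with Spry4 detected in 10 and 56 thinned cells. At 20000 UMIs, which kept the 1752 deepest RSPO1-Fc and 1375 deepest control cells, 4 control pairs passed 0.1, all with Etv5. They were Spry4 at 0.14, Dusp4 at 0.12, Spred2 at 0.11 and Spry2 at 0.11. Of control gene pairs under the same 10% limit, 2.98% passed. With RSPO1-Fc 0 pairs passed (1.21% of gene pairs under that limit did), and the highest was Dusp6 with Etv5 at 0.098. Values of this size in sparse counts are no finding.

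Thinned cells were also split by whether a gene had a UMI, and the other genes were read in a separate thinned sample of the same cells. Control cells with a Spry4 UMI held Etv5 at 193 CPM, and those without at 114 CPM, a ratio of 1.69 (1.26 to 2.22). RSPO1-Fc cells with a Dusp6 UMI held Etv5 at 16.6 CPM, and those without at 7.70 CPM, a ratio of 2.15 (1.21 to 3.63), but split the other way Dusp6 had a ratio of 1.39 (0.69 to 2.54) between cells with and without an Etv5 UMI. Over all such splits the interval lay above 1 for 1 of 81 in the RSPO1-Fc library and 7 of 90 in the control, and below 1 for 2 and 2. Split either way, it lay above 1 in the control for Spry4 with Etv5, Spry1 with Spred1 and Spry2 with Spred2. It lay below 1 either way for Dusp6 with Spred2 in the control and for Dusp4 with Dusp6 in the RSPO1-Fc library. No test was made across the splits. The share of such intervals among other genes was not computed, so these counts cannot be set against a background.

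The 3 genes with the highest value of the same correlation were listed for each of the 10, out of 5382 to 5984 genes compared. A highest value out of so many is high by selection, and values this weak in sparse counts are given as a description and no finding, like those of the pairs above. At 5000 UMIs, the genes most like Etv5 with RSPO1-Fc were Ptn (0.25), the Wnt feedback gene Nkd1 (0.23) and Wnt6 (0.19), and in the control Ifitm3, Nkd1 and Plat (0.18 each). At 20000 UMIs Nkd1 was at 0.32 with RSPO1-Fc and 0.42 in the control. Dusp5 was most like the immediate early gene Atf3 (0.13), Tnfaip3 (0.12) and Cldn4 (0.11) with RSPO1-Fc, and Btg2 (0.14), the feedback gene Errfi1 (0.12) and Atf3 (0.12) in the control. Dusp6 was most like Nkd1, Cdkn1c and Notum with RSPO1-Fc (0.15 to 0.16) and Snhg11, Ceacam10 and Fxyd6 in the control (0.16 to 0.19). Cldn4, a tight junction gene, was likest to Dusp4 in both libraries (0.11 with RSPO1-Fc and 0.13 in the control). Spry2 was most like Actb with RSPO1-Fc (0.18), and the likest genes in the cases not named here had values of 0.073 to 0.14.

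The second comparison was between non-epithelial and epithelial cells of the control library. Non-epithelial cells held more of the brakes Dusp5, Dusp6, Spry2, Spry4 and Spred1 and less Dusp4 and Etv5. By the rule above, 9 of the 10 genes were measured, Etv4 being under the minimum. At least 2-fold higher were 5 of 9, where 21.3% of 7887 genes were higher, and 2 of 9 were lower, where 16.5% of genes were. With every cell thinned to 5000 UMIs, 3 were lower, since Spred2 had a log2 ratio of −1.08, against −0.57 unthinned. The median log2 ratio was 1.19 over the 9 genes and −0.20 over all compared genes. The widest differences were those of Spry4, at 37.5 CPM in non-epithelial and 5.86 CPM in epithelial cells (6.40-fold higher, 5.43 to 7.53), Dusp4, at 10.2 and 66.4 CPM (6.52-fold lower, 5.12 to 8.45), and Etv5, at 18.8 and 119 CPM (6.33-fold lower, 5.29 to 7.63). The phosphatase genes went opposite ways, since Dusp6 was at 128 CPM in non-epithelial and 45.6 CPM in epithelial cells (2.81-fold higher, 2.59 to 3.03).

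The non-epithelial cells fell into 7 clusters, of which 6 were named from markers: 160 macrophage-like cells in 3 clusters, 76 endothelial-like, 73 fibroblast-like and 39 pericyte or smooth muscle-like cells. The other 40 cells, led by Mcpt2 and Itgae with cycling genes, stay unnamed. Each class was set against control epithelial cells, with 3 genes higher and 4 lower of 7 measured in macrophage-like cells (18% and 30.5% of all genes), 5 and 2 of 8 in endothelial-like cells (19.7% and 20.4%), 3 and 2 of 9 in fibroblast-like cells (19.6% and 19.7%), and 4 and 3 of 8 in pericyte or smooth muscle-like cells (20.7% and 21.8%). Dusp4 and Etv5 were lower in all 4 classes.

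Macrophage-like cells had more Dusp5 and Dusp6 than epithelial cells, less Dusp4 (10.6 CPM, 6.25-fold lower, 4.26 to 9.57), and few Sprouty UMIs. They held Dusp6 at 198 CPM (180 to 216) and Dusp5 at 89.6 CPM (78.1 to 102), 4.33-fold and 5.66-fold above epithelial cells. Spry2 had 1 UMI and Spry4 2 UMIs in the 160 cells, Spry1 had 12 (4.91 CPM), and Etv4 had 0, at least 8.66-fold lower than in epithelial cells by a floor of 3 counts over the class. Within the class, Dusp6 was at 339 CPM (295 to 388) in the cluster led by Spic and Ccl8, 208 CPM (175 to 245) in that led by Ccl24 and 115 CPM (96.6 to 137) in that led by Jchain and Arg1, intervals that do not overlap. Etv5 was at 31.5 CPM (24.9 to 39.4).

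Endothelial-like cells combined Spred1 at 142 CPM (124 to 162), Dusp6 at 137 CPM (119 to 156) and Spry1 at 102 CPM (87.2 to 120). Fibroblast-like cells had the highest Spry2, at 120 CPM (102 to 142), 9.34-fold (7.78 to 11.1) above epithelial cells, together with Spry4 at 80.5 CPM (65.3 to 98.2) and Etv4 at 23.2 CPM (15.4 to 33.6), an interval that overlaps those of endothelial-like and pericyte or smooth muscle-like cells. Pericyte or smooth muscle-like cells had the highest Spry4, at 144 CPM (114 to 180), 24.6-fold (19.1 to 31.5) above epithelial cells, and Spry1 at 133 CPM (104 to 168), with the lowest Dusp6, at 20.4 CPM (10.2 to 36.4). In the order of classes, the Spry1 intervals of pericyte or smooth muscle-like and endothelial-like cells overlapped, as did the Spred1 intervals of these classes. For Dusp6, the order ran from macrophage-like to endothelial-like, then fibroblast-like (54.8 CPM), then pericyte or smooth muscle-like cells, and no neighbouring intervals overlapped.

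**Figure D5:**
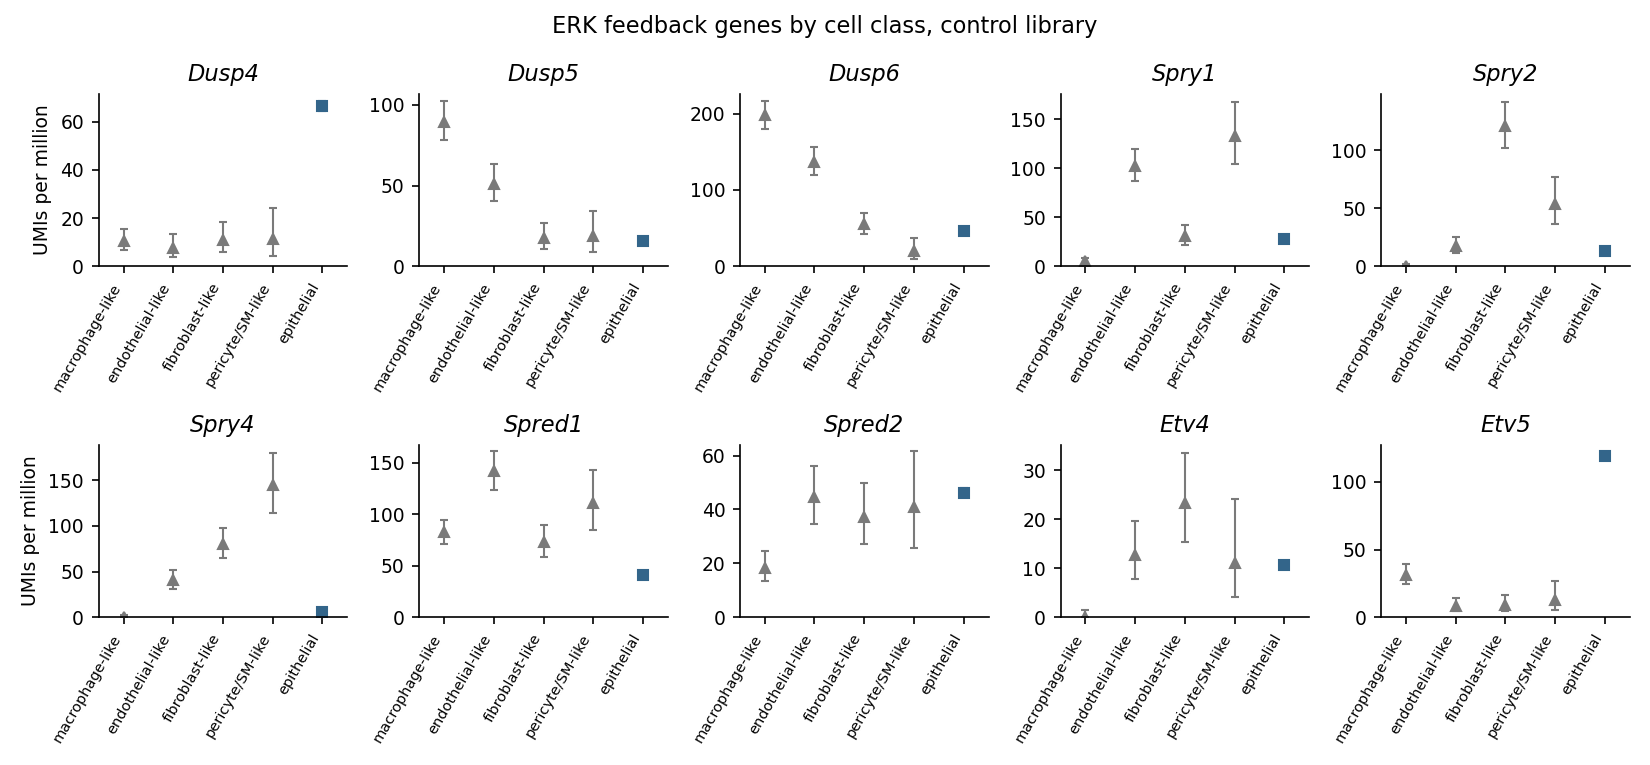
Level of each gene in CPM (vertical axes, from 0) in the 4 named non-epithelial classes (triangles) and in epithelial cells (squares) of the control library, with 95% Poisson intervals. SM stands for smooth muscle. Dusp6 is at 198 in macrophage-like cells and Spry4 at 144 in pericyte or smooth muscle-like cells, against 45.6 and 5.86 in epithelial cells.

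Free RNA in droplets can place epithelial transcripts in other cells. Non-epithelial cells held 17.6 CPM of Nkd1 and 41.8 CPM of Wif1, Wnt feedback genes at 835 and 927 CPM in control epithelial cells. In barcodes of over 100 and up to 500 UMIs of the control library Etv5 was at 87.0 CPM and Spry4 at 7.84 CPM. In endothelial-like cells Etv5 was at 8.27 CPM (13 UMIs) and Nkd1 at 9.54 CPM. In the macrophage-like cluster led by Spic (48 cells) these were 48.2 and 14.5 CPM, with Etv5 at 31.5 CPM over the whole macrophage-like class. The share of free RNA in each low value was not tested.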

How the data were processed

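The authors deposited raw UMI count matrices, 1 per library, made from droplet-based 3′ single-cell RNA-seq. The labels' protocol names reagent kit v2, but the barcode lists differ in length, with 737280 for RSPO1-Fc and 6794880 for the control. Whether both libraries were made with the same kit was not tested. Cell Ranger 2.1.1, Seurat 3.1.1 and build mm10 are listed, per the submitters' processing notes, whereas the control file's header gives software version 3.1.0, per the file headers. Totals were 89437327 UMIs for RSPO1-Fc and 91675581 for the control.

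Cells were called by UMI limits of 5960 and 9810, and counts were summed per population over 27514 shared genes and scaled to CPM. Genes with at least 20 CPM in either sum were compared, and a ratio of at least 2 was counted. Log2 ratios used a pseudocount of 1 CPM. Intervals are exact Poisson or, for ratios, conditional Clopper-Pearson. Cells were clustered with the Leiden method (scanpy 1.11.5, leidenalg 0.10.2) on 2000 variable genes without ERK pathway genes, and no doublet was removed in the main values. The script was tested on simulated counts. edgeR 4.0.16 (R 4.3.3) supplied TMM factors as an alternative. Work used Python 3.11.15, numpy 2.4.6, scipy 1.17.1 and pandas 2.3.3.

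Named genes are the 10 genes, the 2 highest and 2 lowest ratios of each list with any counted member where 5 or fewer were counted, and the 3 genes likest to each of the 10 in each library. The genes and lists were chosen with earlier results of these data known. Alternatives were other scalings, filters, thinnings and cell sets.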

Additional observations from a re-analysis of the deposited data

How the results depend on the processing

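No paired analysis was possible because each group holds 1 library. Over the alternatives, log2 ratios of RSPO1-Fc over control lay between −4.00 and −3.26 for Etv5, −1.63 and −1.19 for Dusp6, −1.29 and −0.78 for Spred1, −1.02 and −0.66 for Spred2, −3.35 and −0.99 for Spry4, and 1.13 and 1.64 for Dusp5. Of 130 such alternatives 45 moved the value by more than its counting interval. Reversal was checked only for genes counted as different, and 0 of these reversed, whereas Spry2, which was not counted, changed sign. Between non-epithelial and epithelial cells 2 of 40 moved the value that far and 0 reversed a counted one. Both came from thinning to 5000 UMIs, with Spry4 at 1.94 against 2.49 and Spred2 at −1.08 against −0.57, which made Spred2 count as lower (3 genes against 2). The 4 lower genes became 2 with edgeR's TMM and 2 with median-of-ratios factors, by the construction of the scaling. The 0 pairs with a correlation of at least 0.1 became 1 in unthinned RSPO1-Fc cells. In control cells they became 5 unthinned and 4 at 20000 UMIs, an alternative chosen after seeing the data. Without cells holding markers of other cell types they became 3, and the cause was not tested. Of all control gene pairs compared, 0.727% reached 0.1 at 5000 UMIs and 2.98% at 20000 UMIs. That share was not computed for unthinned cells or without cells holding such markers. The pair counts in those settings therefore cannot be read as particular to these genes. Removing clusters 3 and 7, and rescaling the gene lists, were also chosen after seeing the data. Counting intervals say nothing of variation between cultures, and genes with few UMIs, such as Spry4 with RSPO1-Fc, limit what this depth can show.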
